A study of Mus musculus with 15 samples.

Results

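The comparison described here set the mouse eye lens at E14.5 (embryonic days are written with the letter E) against the lens at E12.5, across all genes that were measured by RNA sequencing. It used 6 of the 15 libraries of the study, 3 from each of these stages. All came from wild-type C57BL/6NTac embryos, and no group carried a mutation or a treatment. The E12.5 lenses were pooled at 29 lenses per library and the E14.5 lenses at 18, and each library was labelled a biological replicate of its stage. The other libraries were lenses at E10.5 and E16.5 and whole-embryo bodies. The level of a gene was the sum of FPKM (fragments per kilobase of transcript, scaled to the mapped fragments of a library) over its transcripts, and 14532 genes were tested with limma on log2(FPKM + 1). Log2 fold changes on this scale (E14.5 minus E12.5, ± SE) understate the change of genes at low levels. A gene was called when its Benjamini-Hochberg adjusted p was under 0.05.

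The lens grows from a hollow vesicle. The cells at its back elongate first and fill the cavity as primary fibres, and later fibres, called secondary, are added from epithelial cells that divide, leave the cell cycle and elongate at the equator. Fibre cells fill with crystallins, the soluble proteins that give the lens its refractive power, build a membrane rich in channel and junction proteins and a beaded intermediate filament, and finally lose their nuclei and other organelles. The lens keeps a single-layered epithelium at its front throughout and lies inside a thick basement membrane, the capsule. Each library is RNA from whole lenses, so fewer cells of a type and less RNA per cell cannot be told apart.

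The libraries were of lens at both stages, with crystallins, Mip and Pax6 in all 6. They were not equally alike within a stage. On the first principal component of the 6 libraries, which held 79.3% of the variance, the E12.5 libraries lay at -65.1, -43.3 and -25.4 (replicates 1, 2 and 3), and the E14.5 libraries between 39.4 and 50.6. E12.5 replicate 1 therefore lay farthest from E14.5 and E12.5 replicate 3 nearest to it. E12.5 replicate 1 also had the most RNA of mesenchyme, blood, vessels and retina. The 14 periocular mesenchyme markers summed to 1266, 556 and 449 FPKM in the E12.5 libraries and to 185 to 217 FPKM at E14.5. The 14 macrophage markers summed to 233, 164 and 120 FPKM and then to 10.52 to 24.9 FPKM, and the 12 erythroid markers to 8224, 4864 and 3733 FPKM and then to 452 to 973 FPKM. Every E12.5 library lay above every E14.5 library for these sums. The 13 endothelium and pericyte markers summed to 343 to 698 FPKM at E12.5 and to 108 to 210 FPKM at E14.5, and the 11 neural retina markers to 53.5 to 144 FPKM and then to 5.29 to 7.10 FPKM. The sums of the 9 neuron markers overlapped between the stages (13.9 to 30.8 FPKM over all 6 libraries). The 10 muscle markers summed to 14.3 to 18.5 FPKM at E12.5 and to 19.4 to 21.6 FPKM at E14.5, with no overlap. Their mean log2(FPKM + 1) did overlap, at 0.925 to 1.077 and 0.847 to 0.931. Of these markers, 6 were under 1 FPKM in every E14.5 library. How far the RNA of other tissues accounts for any difference was not tested. Most counts or medians given below are repeated without E12.5 replicates 1 and 2, an alternative chosen after seeing the data.

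**Figure D1:**
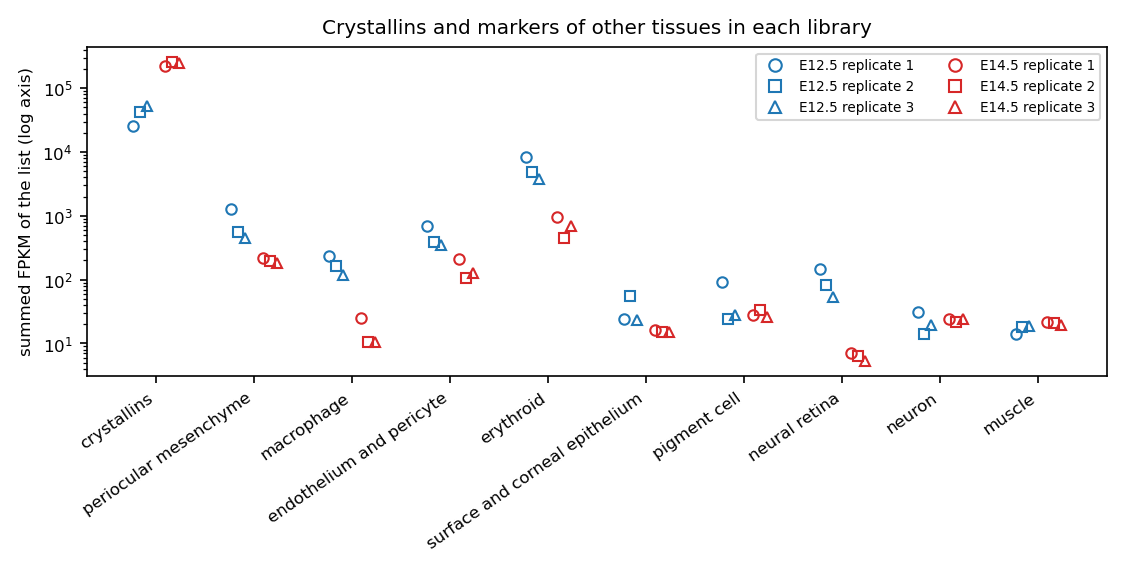
Summed FPKM (log axis) of the 14 crystallins tested and of markers of 9 other tissues or cell types in each lens library at E12.5 (blue) and E14.5 (red), 1 point per library with the replicate shown by the shape. The E12.5 libraries run from 25414 to 53448 FPKM of crystallins while their periocular mesenchyme sum runs from 1266 down to 449 FPKM in the same libraries.

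Of the 14532 genes tested, 3088 were higher at E14.5 (21.2%) and 3258 lower (22.4%), which makes 43.7% called in limma's test. At least 2-fold differences were found for 594 genes that were higher (4.09%) and 1131 that were lower (7.78%), so that 34.4% of the 2-fold calls were higher. Under quantile normalization, which forces the libraries to 1 distribution, these numbers were 661 and 782, and 45.8% were higher. The libraries of the stages did not overlap for 7059 genes (48.6%). The order of the E12.5 libraries ran through these calls. Of the 1128 genes lower by 2-fold without tied values, 86.1% had their highest E12.5 value in replicate 1, against 38.5% of all genes. Of the 569 genes higher by 2-fold, 77.2% had their highest E12.5 value in replicate 3, against 36.0% of all genes. Without E12.5 replicates 1 and 2, the counts were 1490 higher and 1386 lower, with 437 and 693 at 2-fold.

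Crystallins weigh on the totals, so the comparison was also made with them left out of the total and each library rescaled to a common total. The summed FPKM of a library was 921386 ± 51886 (SD, n = 3) at E12.5 and 1340595 ± 54402 (SD, n = 3) at E14.5. Crystallins made up 62.9% of this rise and all other genes 37.1%, with Cryaa listed at 0 in 2 of the 3 E14.5 libraries, which lowers the total at E14.5 and the crystallin part of the rise. With crystallins left out, 1635 genes were higher (11.3%) and 5921 lower (40.7%), and the 2-fold counts were 410 and 1410, so 22.5% of the 2-fold calls were higher. These were 52.0% of all genes called in either direction, 2.82% higher by 2-fold and 9.7% lower by 2-fold. The median log2 fold change of all genes moved from -0.01 to -0.22 with this rescaling. All of the 1635 genes called higher after the rescaling were among the 3088 called before it. Median-of-ratios scaling, an alternative scaling of the libraries, stayed near the deposited values. It gave 3127 genes higher and 3341 lower, with a median log2 fold change of -0.016. The 40.7% of genes called lower therefore belong to the scale with crystallins left out and were not seen under that alternative. Calls of small changes depend on the scale used. Most list counts below are given on both the deposited scale and the scale with crystallins left out. The shares over all genes to set beside them are 21.2% higher and 22.4% lower on the first. On the second they are 11.3% and 40.7%.

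**Figure D2:**
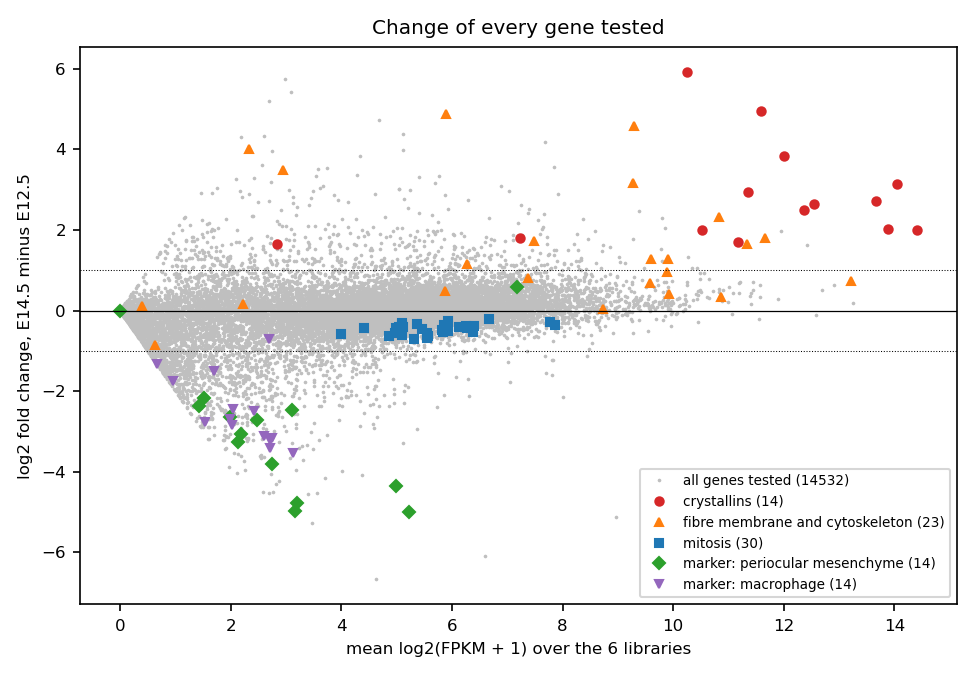
Log2 fold change from E12.5 to E14.5 against the mean log2(FPKM + 1) over the 6 libraries for all 14532 genes tested (grey), with members of 5 lists marked and dotted lines at 2-fold. The crystallins sit at the upper right with high levels and high fold changes, the mitosis genes in a narrow band under 0, and the mesenchyme and macrophage markers mostly below the lower dotted line.

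The crystallins are the main products of fibre cells, and the genes Cryga to Crygf lie on chromosome 1. Cryga to Cryge form a cluster on the minus strand, and Crygf lies apart from it on the plus strand. The 100 bases before the start site are shown for 4 of the genes Cryga to Crygf because these rose together and differ in how far. The sequences are from RefSeq (GRCm38.p6), each on the strand of its gene (Crygf on the plus strand, the others on the minus strand), read 5′ to 3′, and capitals mark TATATA, the core of this promoter box. They lie at chr1:65926422-65926521 for Crygf, chr1:65082291-65082390 for Crygb, chr1:65063441-65063540 for Crygd and chr1:65103364-65103463 for Cryga.
Crygf: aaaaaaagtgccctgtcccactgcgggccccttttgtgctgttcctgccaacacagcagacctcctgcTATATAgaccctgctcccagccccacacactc
Crygb: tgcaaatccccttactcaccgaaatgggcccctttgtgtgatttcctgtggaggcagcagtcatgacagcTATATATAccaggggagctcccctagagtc
Crygd: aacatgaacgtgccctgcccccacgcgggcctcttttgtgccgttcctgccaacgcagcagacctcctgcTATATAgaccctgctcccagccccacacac
Cryga: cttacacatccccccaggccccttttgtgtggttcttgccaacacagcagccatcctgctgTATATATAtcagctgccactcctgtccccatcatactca

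Crygf had the highest fold change of all genes tested. Its level was 85.9, 169 and 261 FPKM in the E12.5 libraries and 8471, 10334 and 9766 FPKM at E14.5, a log2 fold change of 5.92 ± 0.27 (limma adjusted p 1.41e-09). Crygb went from 314, 581 and 910 FPKM to 16673, 17503 and 17153 FPKM (4.96 ± 0.25, adjusted p 4.14e-09), and Crygd from 622, 1164 and 1761 FPKM to 15880, 18055 and 13044 FPKM (3.84 ± 0.26). For these 3 genes the lowest E14.5 library lay above the highest E12.5 library. Cryga and Cryge, already abundant at E12.5, had smaller log2 fold changes. Cryga went from 3279, 6139 and 9006 FPKM to 42045, 56983 and 52595 FPKM (3.15 ± 0.26), and Cryge from 3325, 5377 and 7341 FPKM to 30552, 35432 and 34501 FPKM (2.72 ± 0.20). Crygc rose by 2.94 ± 0.18 on the log2 scale. Summed over Cryga to Crygf, the level was 14427 ± 6145 FPKM (SD, n = 3) at E12.5 and 133565 ± 12621 FPKM (SD, n = 3) at E14.5, a ratio of 9.26. The reference transcripts of Cryge and Crygf are 95.1% identical and those of Crygd and Crygf 84.8%, so the split of reads between these copies is uncertain.

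The sum of the beta-crystallins started higher and had a smaller ratio. It went from 41914 ± 12688 FPKM to 182970 ± 3091 FPKM (SD, n = 3 each), a ratio of 4.37. Crybb3 was at 7717, 12189 and 13748 FPKM at E12.5 and at 44229, 43947 and 42651 FPKM at E14.5 (2.00 ± 0.20, adjusted p 2.66e-06), and Crybb1 went from 4922, 8672 and 9907 FPKM to 25623, 31896 and 34263 FPKM (2.02 ± 0.20). Cryba4 (2.65 ± 0.20) and Cryba2 (2.49 ± 0.18) rose too. Crybb2 had a log2 fold change of 1.66 ± 0.25 at a far lower level, from 2.18, 3.12 and 3.98 FPKM to 10.7, 11.97 and 12.6 FPKM. Cryab, the small heat shock protein among the crystallins, went from 573, 841 and 809 FPKM to 2674, 3019 and 3121 FPKM (2.00 ± 0.14), while Crygn (1.70 ± 0.19) and Crygs (1.80 ± 0.15) had the smallest log2 fold changes beside Crybb2.

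All 14 crystallins tested were called higher by at least 2-fold on both scales. Their median log2 fold change was 2.57 (2.32 with crystallins left out of the total) against -0.01 for all genes. Without E12.5 replicates 1 and 2 the median was 2.07. A fit of only the 6 libraries called 11 of them, and Crybb1, Crybb3 and Cryga were not called there. Under quantile normalization 12 of 14 were called higher, Crybb1 had 0.11 and Crybb3 -0.13. The remaining members of the list, Cryaa and Cryba1, were left out of the test because they were listed at 0 in some libraries. Cryba1 went from 12420, 18859 and 22828 FPKM to 83497, 81759 and 78722 FPKM, and was listed at 0 at another stage only. Cryaa was at 25806, 41766 and 49433 FPKM at E12.5 but was listed at 111417 FPKM in E14.5 replicate 1 and at 0 in replicates 2 and 3, so no change can be given for it. The crystallin share of the summed FPKM was 10.48% ± 2.89 at E12.5 and 26.9% ± 2.78 at E14.5 (SD, n = 3 each), a difference of 16.4 percentage points. The exact two-sided permutation test gave p = 0.1, the smallest that 3 against 3 libraries allow. Without Cryaa and Cryba1 the shares were 4.65% ± 1.47 and 19.8% ± 0.98.

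Short motifs were searched on both strands in 300-base RefSeq windows, from 250 bases before to 50 bases after each start site. They were TATATA for the TATA box, TGCTGA for the core that large Maf factors bind (Maf factors activate crystallin genes), TTTGAA for the cell cycle homology region and TTTCCCGC for E2F. The heat shock element cores GAANNTTC and TTCNNGAA, which can overlap each other, were searched too. GAANNTTC was in 38.7% of the 31 windows of heat shock and chaperone genes against 5.7% of those of all genes tested. TTCNNGAA was in 16.1% against 6.7%. A window was found for 15 of the 16 crystallins. TATATA was in 53.3% of these 15 windows, Cryga to Crygf among them, against 2.4% of the 13261 windows of the genes tested. TGCTGA was in 66.7% of them against 15.4%. It was in 22.7% of the 546 windows of genes higher by 2-fold and in 17.7% of the 1089 of genes lower by 2-fold. The 28 windows of mitosis genes held TGCTGA in 25.0%. Both crystallins shown next are among its holders and belong to the most abundant at E14.5, with TGCTGA or its reverse complement in capitals. A match describes the letters of the window and not binding. The windows lie at chr5:112255709-112255768 for Crybb1 (plus strand) and chr5:113081619-113081678 for Crybb3 (minus strand).
Crybb1: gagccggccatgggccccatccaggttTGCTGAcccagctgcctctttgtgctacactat
Crybb3: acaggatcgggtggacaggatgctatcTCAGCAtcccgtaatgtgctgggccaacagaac

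**Figure D3:**
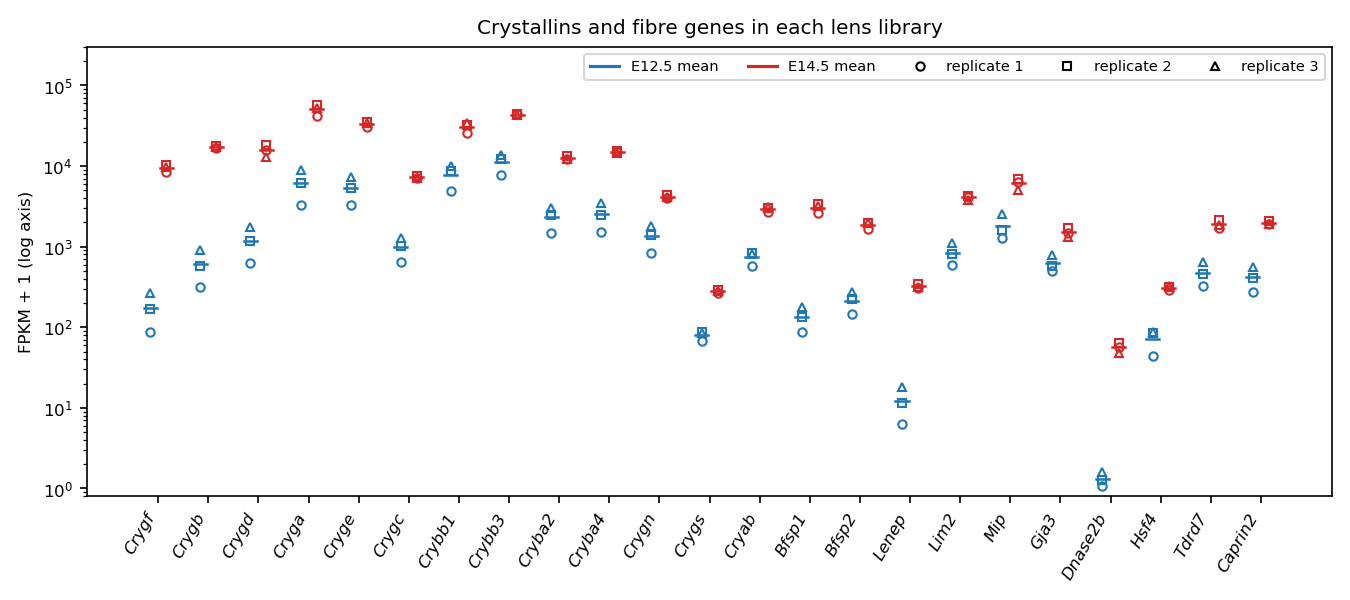
FPKM + 1 (log axis) of 13 crystallins and 10 other fibre genes in each library at E12.5 (blue) and E14.5 (red), with horizontal bars at the means of 3 libraries. For Crygf the E12.5 libraries sit between 85.9 and 261 FPKM and the E14.5 libraries between 8471 and 10334 FPKM, and for Mip the highest E12.5 library (2556 FPKM) lies below the lowest E14.5 library (5030 FPKM).

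Genes of the fibre membrane and cytoskeleton were mostly higher at E14.5. Of 23 tested, 18 were called higher and 1 lower, with a median log2 fold change of 1.15 (15 and 1 with crystallins left out of the total, 14 and 1 without E12.5 replicates 1 and 2, and 14 and 3 under quantile normalization). Bfsp1 and Bfsp2 encode the partners of the beaded filament. Bfsp1 was at 85.8, 133 and 178 FPKM at E12.5 and at 2622, 3396 and 3151 FPKM at E14.5 (4.57 ± 0.20, adjusted p 9.34e-10). Bfsp2 went from 144, 221 and 276 FPKM to 1646, 1988 and 1959 FPKM (3.16 ± 0.20). Neither gene's libraries overlapped between the stages, and at E12.5 both were lowest in replicate 1.

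Membrane proteins of the fibre followed at smaller fold changes. Lim2, a junctional membrane protein, went from 597, 815 and 1123 FPKM to 4165, 4269 and 3799 FPKM (2.31 ± 0.16). Mip, the lens water channel aquaporin-0, went from 1266, 1605 and 2556 FPKM to 6383, 6914 and 5030 FPKM (1.80 ± 0.19). An antisense gene, Gm26847, overlaps Mip and was listed at nearly the same levels (2061 and 7840 FPKM on average), and reads of the pair cannot be told apart without strand. The gap junction gene Gja3 rose by 1.28 ± 0.17 on the log2 scale.

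Some less abundant fibre genes also had large fold changes. Lenep, a lens epithelial protein gene, went from 5.37, 10.4 and 17.3 FPKM to 308, 341 and 317 FPKM (4.88 ± 0.32). It shares an assembled locus on chromosome 3 with Zbtb7b and Flad1, which were higher as well (4.39 ± 0.15 and 2.52 ± 0.14). Much of the Zbtb7b rise sat in a single assembled transcript of 7485 bases, at 0.05 FPKM and then 102 FPKM on average, while its main reference transcript went from 4.88 to 20.2 FPKM. Lctl, a lactase-like membrane protein linked to the lens sutures, was under 0.5 FPKM in each E12.5 library and at 18.9, 22.6 and 16.46 FPKM at E14.5 (4.01 ± 0.17). Birc7, an inhibitor of apoptosis, went from 1.24, 1.53 and 1.08 FPKM to 26.2, 24.5 and 23.6 FPKM (3.50 ± 0.15). Grifin, a galectin of the lens, rose by 1.72 ± 0.12 on the log2 scale. Vim, the vimentin gene, had 0.33 and was not called.

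Genes that act in the removal of nuclei and organelles included some of the highest fold changes. Of 25 tested, 12 were higher and 7 lower (median 0.24), against 21.2% and 22.4% of all genes, and with crystallins left out of the total 9 and 10, against 11.3% and 40.7%. There were 8 higher and 3 lower without E12.5 replicates 1 and 2. Dnase2b, the nuclease that degrades fibre DNA, was at 0.08, 0.29 and 0.58 FPKM at E12.5 and at 55.9, 63.7 and 47.2 FPKM at E14.5 (5.43 ± 0.18, adjusted p 5.2e-11). Its libraries were far apart, although the table places it in a locus shared with Uox. Pla2g16, the phospholipase that permeabilizes fibre organelles, went from 63.6, 93.3 and 114 FPKM to 670, 674 and 624 FPKM (2.88 ± 0.15). Hsf4, the heat shock factor that fibres need for Dnase2b expression, went from 43.3, 83.1 and 86.5 FPKM to 287, 316 and 319 FPKM (2.16 ± 0.19). Capn3, a calpain protease that had the largest gain in mean FPKM of any gene outside the crystallins, went from 3282 to 9607 FPKM on average (log2 fold change 1.62). The members that fell included the nuclear lamina gene Lmnb1 (-0.68), the caspase Casp6 (-0.74 ± 0.20, not called without E12.5 replicates 1 and 2) and the lysosomal nuclease Dnase2a (-1.53 ± 0.28).

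Transcription factors of the lens had small fold changes beside those of the crystallins. Of 25 tested, 10 were higher and 6 lower, with a median of 0.16, and 6 and 11 with crystallins left out of the total. Without E12.5 replicates 1 and 2 these counts were 3 and 4, and under quantile normalization 5 and 7. Maf (c-Maf), an activator of crystallin genes, was at 576, 750 and 906 FPKM and then at 1079, 1307 and 1217 FPKM (0.71 ± 0.14, adjusted p 0.00096). Prox1, needed for fibre elongation, went from 553, 663 and 859 FPKM to 1019, 1097 and 1033 FPKM (0.62 ± 0.13), and Sox1 from 181, 253 and 302 FPKM to 309, 395 and 394 FPKM (0.60 ± 0.16). None of these 3 overlapped between the stages, yet none was called without E12.5 replicates 1 and 2. Pax6, the factor that specifies the eye, was at 378, 383 and 352 FPKM and then at 324, 304 and 332 FPKM (-0.21 ± 0.06, adjusted p 0.00865), and was likewise not called without these libraries, nor in a fit of only the 6 libraries. Foxe3, which keeps the lens epithelium, had 0.20 ± 0.13 (adjusted p 0.244) and Sox2 -0.31 ± 0.16 (adjusted p 0.139). Tfap2b (-4.56 ± 0.32) and Sox11 (-1.88 ± 0.19) fell most among the factors listed, and Tfap2b, at 98.9, 40.9 and 31.1 FPKM at E12.5, was highest in the library with the most mesenchyme markers.

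Among 16 RNA-binding regulators of the lens, 3 were called higher and 4 lower (median -0.05), shares near those of all genes, and 2 and 9 with crystallins left out of the total, 3 and 9 under quantile normalization, and 2 and 5 without E12.5 replicates 1 and 2. Tdrd7, a component of RNA granules that is linked to cataract, was at 323, 454 and 640 FPKM at E12.5 and at 1703, 2129 and 1854 FPKM at E14.5 (2.05 ± 0.18). Caprin2 went from 276, 411 and 560 FPKM to 1905, 2093 and 1919 FPKM (2.30 ± 0.18). Rbm24 was at 308 to 465 FPKM and then at 433 to 524 FPKM, with overlapping libraries (0.28 ± 0.15, adjusted p 0.147). The heterochronic factors Lin28a (-1.16 ± 0.17) and Lin28b (-0.57 ± 0.09) fell. Of 50 genes linked to cataract that are not crystallins, 27 rose and 6 fell (median 0.40), with 21 and 14 when crystallins were left out of the total and 17 and 3 without E12.5 replicates 1 and 2.

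Genes of the lens epithelium were also mostly higher on the deposited scale. There 62.5% were higher and 18.8% lower, against 21.2% and 22.4% of all genes. With crystallins left out of the total the shares were 37.5% and 18.8%, against 11.3% and 40.7%. Of 16 tested, 10 were higher and 3 lower (median 0.50), with 6 and 3 when crystallins were left out of the total, 5 and 3 under quantile normalization, and only 2 and 1 without E12.5 replicates 1 and 2. Cdh1, the epithelial cadherin, was at 103, 111 and 130 FPKM and then at 180, 200 and 215 FPKM (0.79 ± 0.10). Dkk3, a secreted member of the Dickkopf family, went from 493, 529 and 767 FPKM to 1339, 1584 and 1191 FPKM (1.22 ± 0.15). The secreted Wnt antagonist Sfrp2 fell, from 367, 299 and 256 FPKM to 124, 129 and 162 FPKM (-1.14 ± 0.19). Of 23 components of the capsule, 11 were higher (47.8%) and 7 lower (30.4%), with a median of 0.34. With crystallins left out of the total there were 5 (21.7%) and 9 (39.1%), against 11.3% and 40.7% of all genes. Only 2 were higher and 6 lower without E12.5 replicates 1 and 2. Nid1 (nidogen 1) went from 1036, 923 and 1354 FPKM to 2043, 2369 and 1892 FPKM (0.94 ± 0.12). Lama4 (-2.36 ± 0.34), Col15a1 (-2.30 ± 0.40) and Col18a1 (-2.13 ± 0.26) fell, and all 3 had their highest value in E12.5 replicate 1.

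Among signalling genes, the Wnt and FGF lists held risers of at least 2-fold although most members were level or lower. No gene of the Notch or the BMP and TGF-beta list was called higher by 2-fold, against 4.09% of all genes. The shares lower were 43.3% (Wnt), 52.6% (Notch) and 36.7% (BMP and TGF-beta), against 22.4% of all genes. With crystallins left out of the total they were 73.3%, 73.7% and 56.7%, against 40.7%. Of 30 Wnt genes, 5 were higher and 13 lower (median -0.28, 4 and 22 with crystallins left out of the total, and 3 and 9 without E12.5 replicates 1 and 2). Wnt7a, a ligand, was at 2.57, 3.18 and 7.24 FPKM at E12.5 and at 124, 151 and 120 FPKM at E14.5 (4.73 ± 0.25, adjusted p 6.38e-09). Wnt7b went from 61.3, 91.3 and 107 FPKM to 368, 472 and 392 FPKM (2.26 ± 0.16). Both ligands stood apart between the stages in every library. The co-receptor Lrp5 fell from 41.6, 26.2 and 17.6 FPKM to 6.51, 4.45 and 3.90 FPKM (-2.25 ± 0.25), and the secreted inhibitor Dkk2 from 49.1, 14.4 and 8.82 FPKM to 3.13, 0.74 and 0.78 FPKM (-3.07 ± 0.47).

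FGF signalling drives fibre differentiation, and 26 of its receptors and ERK targets were tested. There were 7 higher (26.9%) and 8 lower (30.8%), with a median of -0.17, against 21.2% and 22.4% of all genes. With crystallins left out of the total there were 4 (15.4%) and 11 (42.3%), near the 11.3% and 40.7% of all genes. Without E12.5 replicates 1 and 2 the median was 0.04. Fgfr3, a receptor of fibre cells, was at 90.1, 115 and 156 FPKM and then at 365, 421 and 335 FPKM (1.66 ± 0.21), while Fgfr1 had 0.07 and was not called. The ERK phosphatase gene Dusp4 rose by 1.17 ± 0.09 on the log2 scale and Etv4, an ETS factor induced by FGF, fell by 1.33. Of 19 Notch genes, 2 were higher and 10 lower (median -0.32, 1 and 14 with crystallins left out of the total, and 1 and 5 without E12.5 replicates 1 and 2). Jag1, the ligand of young fibres, had 0.46 ± 0.10 (0.21 with an adjusted p of 0.0686 when crystallins were left out of the total), and the vascular ligand Dll4 -1.70 ± 0.32. Of 30 BMP and TGF-beta genes, 2 were higher (Id2, 0.81 ± 0.13, and Bmpr1a, 0.57 ± 0.09) and 11 lower, among them Tgfb1 and Tgfbr2. There were 2 and 17 with crystallins left out of the total, and 2 and 5 without E12.5 replicates 1 and 2. Jag1 and Dll4 were not called without these libraries.

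Cell cycle genes were lower at E14.5, by small amounts. None of the 34 DNA replication genes tested was higher and 28 were lower (median -0.51). None of the 30 mitosis genes was higher and 24 were lower (median -0.43), against 22.4% of all genes. With crystallins left out of the total 33 and 30 were lower. Rrm2, a subunit of ribonucleotide reductase, was at 109, 87.3 and 82.4 FPKM and then at 55.3, 45.6 and 65.1 FPKM (-0.74 ± 0.13, adjusted p 0.000302). Cdc20, the activator of the anaphase-promoting complex, went from 65.8, 57.3 and 53.2 FPKM to 39.1, 31.4 and 38.0 FPKM (-0.68 ± 0.11). Mki67, the proliferation marker, was at 304, 200 and 226 FPKM and then at 200, 162 and 235 FPKM. Its libraries overlapped and it was not called (-0.28 ± 0.16, adjusted p 0.163). The number of these calls depended on the libraries in the fit. Without replicate 1 of E12.5 there were 22 replication genes lower and 9 mitosis genes (medians -0.41 and -0.33), against 17.5% of all genes. A fit of only the 6 libraries, with every E12.5 replicate, had 18 and 9 lower at unchanged medians, against 15.5% of all genes. Without E12.5 replicates 1 and 2 the medians were -0.33 and -0.26, against -0.007 for all genes. That fit kept a single E12.5 library and called fewer genes lower, in these lists as over all genes. The parts of these libraries and of the smaller fit in the lost calls were not tested.

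TTTGAA was in 82.1% of the 28 windows of mitosis genes against 11.7% of those of all genes tested, and TTTCCCGC in 15.6% of the 32 windows of replication genes against 1.9%. The 60 bases shown for Cdc20 and Mki67 hold TTTGAA in capitals and represent the mitosis genes named here. They lie on the minus strand at chr4:118437344-118437403 and chr7:135716445-135716504.
Cdc20: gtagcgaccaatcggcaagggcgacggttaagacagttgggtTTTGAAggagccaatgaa
Mki67: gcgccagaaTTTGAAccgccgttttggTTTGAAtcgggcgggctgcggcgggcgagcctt

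The inhibitors that take lens cells out of the cycle did not follow 1 direction. In their list 22.2% were higher and 38.9% lower, against 21.2% and 22.4% of all genes. With crystallins left out of the total the shares were 5.56% and 66.7%, against 11.3% and 40.7%. Of 18 CDK inhibitors, pocket proteins, D cyclins and E2F factors, 4 were higher and 7 lower (median -0.15, 1 and 12 with crystallins left out of the total, and 1 and 4 without E12.5 replicates 1 and 2). Cdkn1c (p57), the main inhibitor of fibre cells, was at 698, 919 and 935 FPKM and then at 920, 1092 and 1236 FPKM, with overlapping libraries. Its log2 fold change was 0.35 ± 0.12 (adjusted p 0.029), 0.10 with crystallins left out of the total and -0.02 under quantile normalization. Cdkn1b (p27) was at 65.3, 68.2 and 72.2 FPKM and then at 70.1, 72.4 and 71.1 FPKM (0.06 ± 0.06, adjusted p 0.458), and with crystallins left out of the total it had -0.19. Cdkn1a (-1.90 ± 0.26), Cdkn2a (-2.34 ± 0.23) and Cdkn2b (-2.57 ± 0.28) were lower, from low levels. Cdkn1a was at 10.2, 10.6 and 7.89 FPKM at E12.5. Cdkn2a was at 6.66, 5.07 and 2.55 FPKM there and Cdkn2b at 16.4, 8.24 and 4.77 FPKM. Both Cdkn2a and Cdkn2b were highest in replicate 1, the E12.5 library with the most mesenchyme and erythroid markers.

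**Figure D4:**
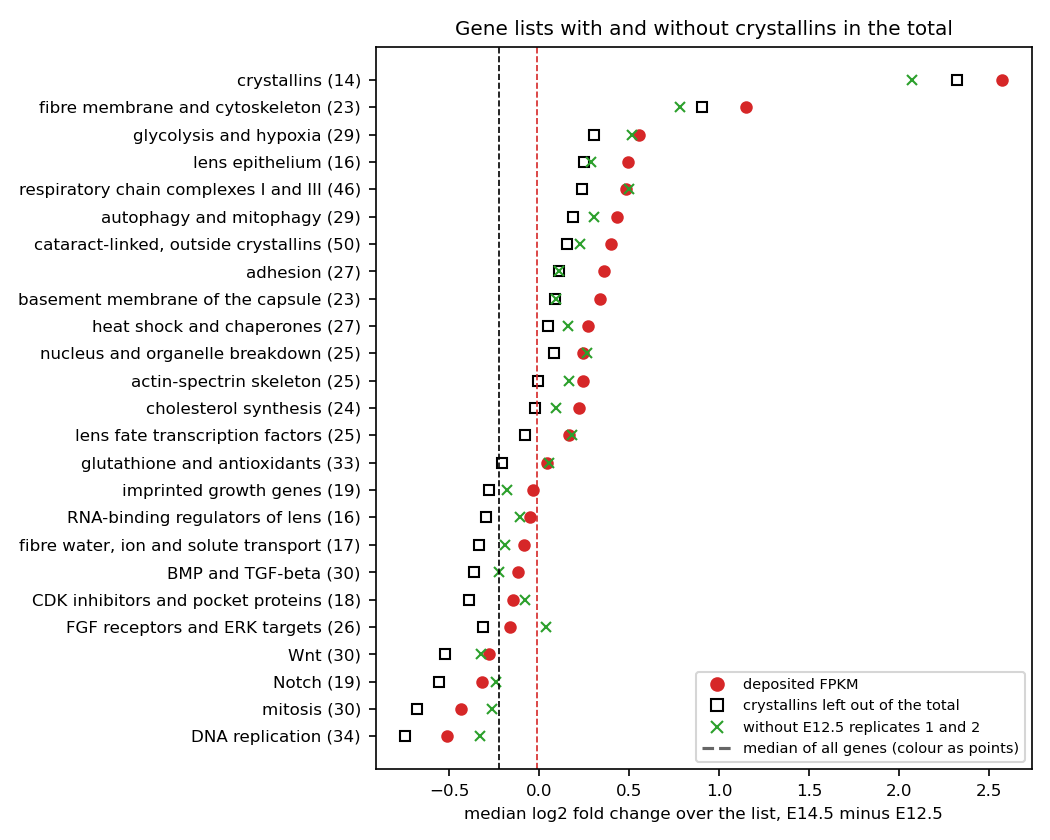
Median log2 fold change from E12.5 to E14.5 over 25 gene lists (number tested in brackets) from the deposited FPKM (red), with crystallins left out of the total (black squares) and without E12.5 replicates 1 and 2 (green crosses), with dashed lines at the medians of all genes. Crystallins stand at 2.57 and DNA replication genes at -0.51 on the deposited scale, and the black squares lie to the left of the red points.

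Energy metabolism genes were mostly higher at E14.5. Of 29 genes of glycolysis and the hypoxia response, 21 were higher and 3 lower (median 0.55, 15 and 4 with crystallins left out of the total, and 16 and 1 without E12.5 replicates 1 and 2). Ndrg1, a hypoxia-induced gene, was at 7.46, 13.3 and 18.7 FPKM and then at 111, 153 and 138 FPKM (3.33 ± 0.34, adjusted p 4.25e-06). Bnip3, a mitophagy receptor induced by hypoxia, went from 28.8, 30.9 and 33.8 FPKM to 89.9, 72.1 and 77.8 FPKM (1.33 ± 0.11), and the aldolase gene Aldoc rose by 1.14 ± 0.15 on the log2 scale. None of these overlapped between the stages. Ldhb, a lactate dehydrogenase, fell from 40.2, 30.2 and 19.7 FPKM to 3.23, 2.56 and 4.27 FPKM (-2.79 ± 0.21) while its counterpart Ldha had 0.57. Of 46 subunits of the respiratory complexes I and III, 39 rose and none fell (median 0.48), with 24 and 1 when crystallins were left out of the total and 31 and 0 without E12.5 replicates 1 and 2.

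The interval from E10.5 to E12.5 shares the E12.5 libraries with this one, so the difference between the intervals was tested in the same model. Between E10.5 and E12.5, 4 of the 29 glycolysis and hypoxia genes were higher and 18 lower (median -0.50), where 29.5% of all genes were higher and 26.0% lower. For 19 of them the change after E12.5 was the more positive (7.06% of all genes), and for 1 the more negative (12.1% of all genes). Pdk1, which diverts pyruvate from the mitochondria, averaged 72.1, 28.9 and 54.7 FPKM at E10.5, E12.5 and E14.5, with a difference between the intervals of 2.19 ± 0.14 on the log2 scale (adjusted p 5.94e-08). Ldha averaged 971, 315 and 470 FPKM (2.18 ± 0.17, adjusted p 6.45e-07). Both genes stood at E14.5 between their means at E10.5 and E12.5.

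**Figure D5:**
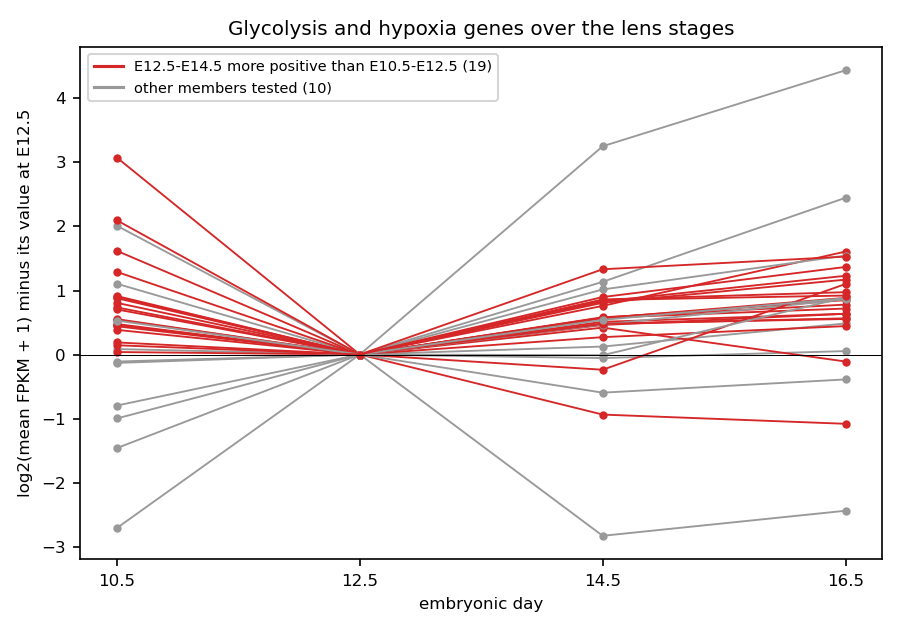
Log2 of the mean FPKM + 1 of 29 glycolysis and hypoxia genes at the 4 lens stages, set to 0 at E12.5, with the 19 genes in red whose change after E12.5 was called more positive than the change before it. Most red lines fall to E12.5 and climb after it, and the gray line highest at E14.5 is Ndrg1, with 13.2 FPKM at E12.5 and 134 FPKM at E14.5.

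Autophagy genes and chaperones also included large single changes. With crystallins left out of the total, 11.3% of all genes were higher and 40.7% lower. Each list of this paragraph had a larger share higher on that scale. The shares lower were 27.6% for autophagy, 29.6% for chaperones, 20.8% for cholesterol synthesis, 48.5% for antioxidants and 29.6% for adhesion. Of 29 autophagy and mitophagy genes, 18 were higher and 1 lower (median 0.43, 13 and 8 with crystallins left out of the total, and 13 and 0 without E12.5 replicates 1 and 2). Optn (optineurin), a receptor of selective autophagy, was at 9.09, 10.49 and 12.1 FPKM and then at 84.1, 103 and 90.7 FPKM (3.02 ± 0.14). Of 27 heat shock and chaperone genes, 12 were higher and 1 lower (median 0.27, 9 and 8 with crystallins left out of the total, and 8 and 0 without E12.5 replicates 1 and 2). Dnajb1, a co-chaperone of HSP70, was level within E12.5 at 44.7, 47.8 and 43.3 FPKM and was at 213, 238 and 223 FPKM at E14.5 (2.29 ± 0.10). Of 24 cholesterol synthesis genes, 12 were higher and 2 lower (median 0.22, and 7 and 5 with crystallins left out of the total). Of 33 glutathione and antioxidant genes, 12 were higher and 6 lower, but 8 and 16 with crystallins left out of the total, with Gstp1 among the first (2.02 ± 0.16) and Sepp1, a plasma selenoprotein, among the second (-2.92 ± 0.25). Of 27 adhesion genes, 15 were higher and 3 lower (median 0.36, and 9 and 8 with crystallins left out of the total). Without E12.5 replicates 1 and 2 the counts were 4 and 0 for cholesterol synthesis, 7 and 5 for glutathione and antioxidants, and 7 and 3 for adhesion. Tjp1 (ZO-1) went from 332, 339 and 459 FPKM to 802, 933 and 806 FPKM (1.18 ± 0.12), and Cdh11, a mesenchymal cadherin, from 128, 41.8 and 29.1 FPKM to 2.65, 2.14 and 1.48 FPKM (-4.17 ± 0.40).

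A set of 10 genes was under 1 FPKM in each E12.5 library and at 10 FPKM or more in each E14.5 library. Beside Dnase2b and Lctl it held Nlrc5, a regulator of MHC class I genes, which was listed at 0.19, 0 and 0 FPKM and then at 40.4, 43.5 and 31.8 FPKM (5.21 ± 0.16). Most of this level sat in assembled transcripts that differ from the reference. The Nlrc5 reference transcript of 6945 bases was at 11.7, 4.51 and 0.04 FPKM at E14.5. Tmprss11e, a transmembrane serine protease, was listed at 0, 0 and 0.07 FPKM and then at 19.9, 19.9 and 18.3 FPKM. Pappa, a metalloprotease that cleaves IGF-binding proteins, went from 0.39, 0.23 and 0.43 FPKM to 30.7, 29.7 and 19.8 FPKM (4.34 ± 0.19). The remaining genes were RP23-114F4.1 (5.76 ± 0.14), D630024D03Rik (3.95 ± 0.14), Stx11, Fam46b and Rnf152. Reference transcripts of RP23-114F4.1 and Dnase2b averaged 0.03 and 0.23 FPKM at E12.5 and 9.60 and 24.1 FPKM at E14.5, with the rest in other assembled transcripts. None of the 10 is a marker of another tissue in the lists used.

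In the opposite direction, 9 genes were at 10 FPKM or more in each E12.5 library and under 1 FPKM in each E14.5 library. They included Cxcl12, Lhx2, Mab21l2, Otx1, Pdzrn3, Sgk1, Slc38a8 and Zic1. Cxcl12, a chemokine of mesenchyme, went from 73.5, 25.7 and 15.9 FPKM to 0.48, 0.75 and 0.09 FPKM (-4.51 ± 0.36). All 9 were highest in E12.5 replicate 1. The lowest log2 fold changes of all genes tested, on the log2(FPKM + 1) scale, belonged to embryonic globins and collagens. Hbb-bh1 went from 518, 215 and 134 FPKM to 2.53, 1.21 and 0.87 FPKM (-6.66 ± 0.39), Hba-x had -6.09 ± 0.43, and Col3a1 went from 436, 168 and 126 FPKM to 10.7, 5.38 and 2.88 FPKM (-4.99 ± 0.73).

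These falls ran with the markers of other tissues as lists. Of 14 periocular mesenchyme markers 12 were lower and 1 higher (median -2.89), of 14 macrophage markers all were lower (median -2.73), of 12 erythroid markers 10 were lower (median -1.95), and of 13 endothelium and pericyte markers 11 were lower and 1 higher (median -1.91). The numbers lower were 9, 13, 7 and 8 without E12.5 replicates 1 and 2. Of 11 neural retina markers 8 were lower and 1 higher, and 10 were under 1 FPKM in every E14.5 library, 4 of them listed at 0 in all 3. Of the mesenchyme markers 6 were under 1 FPKM in every E14.5 library, Twist1 and Dcn among them. Pdgfra was the mesenchyme marker that rose (0.58 ± 0.09), and Rgs5 the pericyte marker (1.77 ± 0.32). The part of these tissues in the falls of signalling, capsule and cell cycle genes was not tested.

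The changes differed from those of the neighbouring intervals for many genes. Against the change from E10.5 to E12.5, 1026 genes had a more positive change after E12.5 (7.06%) and 1759 a more negative one (12.1%). None of the 14 crystallins had a more positive change and 12 had a more negative one. Crybb1 averaged 6.88 FPKM at E10.5, 7834 FPKM at E12.5 and 30594 FPKM at E14.5, so that its log2 rise was smaller in the second interval by 7.89 ± 0.35 (adjusted p 6.78e-09). Crygf, in contrast, rose by 5.75 and then by 5.92 on the log2 scale, and its difference of 0.17 ± 0.46 had an adjusted p of 0.85 (1.93, 172 and 9523 FPKM on average). RP23-114F4.1 (5.71 ± 0.24), Nlrc5 (5.17 ± 0.29), Dnase2b (5.05 ± 0.30) and Wnt7a (4.66 ± 0.43) led the named genes with the more positive change, and none of them was called between E10.5 and E12.5.

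Against the change from E14.5 to E16.5, which shares the E14.5 libraries and had 5.97% of all genes higher and 4.03% lower, 971 genes had a more positive change before E14.5 (6.68%) and 1357 a more negative one (9.34%). Without E14.5 replicate 2 these numbers were 552 and 863. Of the 14 crystallins 11 had the more positive change and none the more negative. Crygf averaged 23655 FPKM at E16.5, and its rise after E14.5 of 1.30 was smaller by 4.61 on the log2 scale (adjusted p 5.64e-05). Wnt7a averaged 132 FPKM at E14.5 and 193 FPKM at E16.5 and was not called after E14.5 (adjusted p 0.198), and its difference was 4.19 ± 0.43. Fam46b was the exception among the 10 genes that switched on, since it averaged 0.38 FPKM at E12.5, 12.3 FPKM at E14.5 and 5.66 FPKM at E16.5. Replication and mitosis genes had medians of -0.51 and -0.43 up to E14.5 and of -0.51 and -0.63 after it, and Pola1 of the replication list was the 1 gene of both lists whose difference was called.

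The transcript with the highest FPKM of a gene differed between the stages, alike in all 3 libraries of each, in 37 of 5590 genes (0.662%). In Capzb, the beta subunit of the actin capping protein, a reference transcript of 1702 bases made up 4.3%, 9.4% and 14.8% of the gene's FPKM at E12.5 and 51.7%, 56.1% and 53.3% at E14.5, while the gene as a whole had a log2 fold change of 0.10. In Trpm1, a cation channel of pigment cells and retina, a reference transcript of 5693 bases made up 9.5%, 26.3% and 28.2% and then 39.0%, 51.8% and 50.7%. These shares come from the authors' transcript estimates and have no test here. The rise of Rnf113a1 lay mostly in 10 assembled transcripts that overlap its exon, which went from 30.2 to 719 FPKM on average, while its reference transcript went from 36.7 to 89.4 FPKM.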

How the data were processed

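RNA was sequenced from 6 pooled lens libraries, 3 at E12.5 and 3 at E14.5, with 29 and 18 lenses per library, and the libraries at E10.5 and E16.5 and of whole-embryo bodies entered the same model. The authors deposited FPKM per transcript for all libraries in one table, per the file headers. The submitters' processing notes name Trimmomatic, TopHat2 2.0.9, Cufflinks, Cuffnorm and the mouse build mm10. Their order, the annotation used and Cuffnorm's normalization setting are not given in the sources used here. The files hold no counts, so the depth is unknown and the 3 libraries per stage set the precision.

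FPKM was summed per gene symbol after leaving out 172 transcripts on the opposite strand of a reference exon (class code x), and 119 symbols lie in several loci. Genes with 1 FPKM or more in at least 3 libraries were kept (80 were removed), and 3 genes listed at 0 in libraries of a stage whose other libraries had over 50 FPKM (Cryaa, Cryba1, Nufip2) were left out, which left 14532. The test was limma 3.58.1 in R 4.3.3 with a trended prior on log2(FPKM + 1), 5 groups, 10 residual degrees of freedom, and Benjamini-Hochberg adjustment over all genes. In simulated data for E14.5 against E12.5 on 14532 genes, 66% of 100 changes of 1.5-fold and 95% of 100 changes of 2-fold were called, with 8 false calls. The simulated noise was independent between genes, and all other genes were unchanged. The real E12.5 libraries differed in a shared order over many genes, so these rates need not hold for them. The same model tested the difference from the neighbouring intervals, which share libraries with this one.

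Members and the 34 gene lists were chosen with earlier results of these data known. Named genes were the 10 highest and 10 lowest log2 fold changes among called genes of 10 FPKM or more with no overlap, up to 3 called members per list and direction, up to 8 genes per direction of each interval difference, genes that went from under 1 to 10 FPKM or more or the reverse, the 10 most abundant genes of each stage, up to 6 genes with a changed leading transcript, and a fixed set of crystallins and lens genes, of which a few are not reported here. Capn3, Ldha, Pdk1, Lmnb1, Fgfr1, Vim, Twist1, Dcn, Pola1, Uox and Rnf113a1 were named after their values were seen. Promoter windows were taken from RefSeq (GRCm38.p6) and matched 10351 genes by symbol. Alternatives were crystallins left out of the total, quantile and median-of-ratios scaling, a pseudocount of 0.1, no filter, no trend, class x transcripts kept, only the 6 libraries, a replicate block and each replicate left out. The labels call the libraries biological replicates.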

Additional observations from a re-analysis of the deposited data

Results flagged for a closer look

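The change from E12.5 to E14.5 differed from the change in a neighbouring interval for many genes, by limma's test of the difference itself with Benjamini-Hochberg adjustment. The neighbouring intervals share the E12.5 or the E14.5 libraries, so an extreme value in a shared library moves both changes in opposite directions. Against E10.5 to E12.5 there were 1026 genes with a more positive and 1759 with a more negative change, and against E14.5 to E16.5 there were 971 and 1357. RP23-114F4.1 (5.71 on the log2 scale), Nlrc5 (5.17) and Dnase2b (5.05) had the most positive differences from the earlier interval. Crybb1 (-7.89), Aldh1a2 (-7.60) and Hsd3b6 (-7.24) had the most negative, and the averages of Aldh1a2, a retinoic acid synthesis enzyme, were 0.667, 31.0 and 2.03 FPKM at E10.5, E12.5 and E14.5. Against the later interval the most positive differences were those of Crygf (4.61), Fam46b (4.27) and Wnt7a (4.19). Col2a1 (-7.19), Zic1 (-7.06) and Mab21l2 (-6.82) had the most negative, and at E12.5 Col2a1 was highest in replicate 2 and the others in replicate 1.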

How the results depend on the processing

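With crystallins left out of the total, 1635 genes were higher and 5921 lower, and 621 had a more positive change than in the interval after. Median-of-ratios scaling gave 3127 higher and 3341 lower, near the counts of the deposited values. Quantile normalization gave 1721 genes with a more positive change than in the interval before. A fit of only the 6 libraries had 2324 genes higher and 2252 lower. Without E12.5 replicates 1 and 2, chosen after seeing the data, 1490 were higher, 1386 lower and 693 lower by 2-fold. Leaving out each replicate in turn gave 2543 to 3176 genes higher, 2541 to 3368 lower, 508 to 696 higher by 2-fold and 933 to 1346 lower by 2-fold. It gave 685 to 1107 and 1395 to 1757 against the interval before, 552 to 1346 and 863 to 1729 against the interval after, and 14.8 to 17.6 points for the crystallin share. The cause of these shifts was not tested, beyond the rescaling and the smaller number of libraries.

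Cdkn1b turned to -0.19 with crystallins left out of the total. Under quantile normalization Capzb turned to -0.17, Cdkn1c to -0.024, Crybb3 to -0.13, Eef1a1 to -1.55, Hsp90ab1 to -0.92, mt-Co1 to -0.98 and mt-Cytb to -0.78. Of the 208 named genes, 186 kept their direction and side of the threshold under quantile normalization, 183 with only the 6 libraries, 168 without E12.5 replicates 1 and 2, and 195 to 208 under the other settings.

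Same-numbered libraries did not deviate together (r = 0.24, -0.09 and -0.07), so the numbers do not pair them. Replicate 1 of E12.5 alone correlated best with its own number. With the replicate number as a block, 3043 genes were higher and 3210 lower (593 and 1134 by 2-fold), and the calls of all 208 named genes held.

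The depth is unknown, so low values have no counting error. RNA of other tissues and the stage cannot be told apart where both fell in every library.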

Other observations

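The lists not described above were mixed. Of 25 genes of the actin and spectrin skeleton, 12 were higher and 9 lower (median 0.24). The median was -0.01, with 8 and 9, when crystallins were left out of the total, and -0.18, with 9 and 12, under quantile normalization. Sptbn1, a beta-spectrin, rose by 1.32 on the log2 scale and Ank1, the erythroid ankyrin, fell by 1.32. Of 19 imprinted growth genes 7 were higher and 7 lower, but 3 and 9 with crystallins left out of the total and 1 and 5 without E12.5 replicates 1 and 2. Of 17 genes of fibre water, ion and solute transport 5 were higher and 5 lower, but 3 and 6 with crystallins left out of the total and 3 and 2 without E12.5 replicates 1 and 2. Slc7a11, the cystine transporter, was among the 5 that rose (1.22). Of 11 surface and corneal epithelium markers 1 was higher and 5 lower, of 5 pigment cell markers 1 and 3, of 9 neuron markers 2 and 1, and of 10 muscle markers 1 and 1.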
